A study of Homo sapiens with 6 samples.

Results

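The genes described here are 10 members of the Notch pathway, chosen by symbol among the 58735 genes of the deposited count table. They are the receptors NOTCH1, NOTCH2, NOTCH3 and NOTCH4, the ligands JAG1, JAG2 and DLL1, and the target genes HES1, HES4 and HEY1. RNA had been sequenced from parent MDA-MB-231 cells (genotype WT, 3 libraries) and from their ADR resistant derivative, called ADRr cells here (3 libraries). MDA-MB-231 is a triple-negative breast cancer (TNBC) cell line, and ADR is Adriamycin (doxorubicin), an anthracycline that poisons topoisomerase II and damages DNA. Both groups were kept in the same medium with serum, apart from any drug. According to the study's methods, ADRr cells had been selected in rising doses of ADR and expanded under high doses of it. Single clones were then isolated by limiting dilution. Whether ADR was still present when RNA was taken is not stated there. What belongs to a clone, to resistance or to drug exposure therefore cannot be told apart. The series record speaks of time points that the sample labels do not name, and all libraries with one genotype were taken as replicates. The labels do not say whether they came from separate cultures, and the study's methods speak of repeated experiments in general without naming these libraries, so the p-values measure only the spread between them, which may be technical.

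Notch is a signal between touching cells. A Jagged or Delta ligand on one cell binds a Notch receptor on its neighbour. When the ligand is taken up by its own cell, the pull exposes the receptor to an ADAM protease, and γ-secretase then frees the intracellular domain. That domain enters the nucleus, joins the DNA-binding protein RBPJ and a Mastermind coactivator, and switches on HES and HEY genes, which encode bHLH repressors. In breast epithelium the pathway is known for its part in progenitor cells, and in breast cancer for its link with stem-like cells. Receptor cleavage and protein levels were not measured by these libraries.

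The libraries held 15983985 to 18272314 counts. An unseen gene could at this depth still have had 3 counts, which is 0.164 to 0.188 CPM (counts scaled to library size) and covers counting error only. All 10 members passed the filter on low counts and were among the 15242 genes tested. HEY1 passed through its ADRr libraries alone. The TNBC markers VIM, CD44, EGFR and AXL together reached 3468 to 3553 CPM in parent and 4226 to 4284 CPM in ADRr libraries. Of these CD44 and EGFR were called higher and VIM and AXL lower. The luminal markers ESR1, PGR and FOXA1 had at most 3 counts in any library, while ERBB2 and GATA3 were detected. ERBB2 was called lower, with a log2 fold change of -1.24, and GATA3 was not called. Vessels and blood cells also express Notch genes, so their markers were read. Of 7 endothelial markers, CDH5 and ERG had at most 3 counts in every library, and the list summed to 3.25 to 5.31 CPM in parent and 8.70 to 9.76 CPM in ADRr libraries, with 1 gene called higher, KDR. Of 6 leukocyte markers 5 had at most 3 counts in every library, and the sum was at most 0.281 CPM. The 5 mural markers summed to 290 to 305 CPM in parent and 253 to 270 CPM in ADRr libraries, with 1 called higher and 1 lower. The higher one was RGS5 (log2 fold change 0.88) and the lower one PDGFRB (-2.90), a large change that the sum does not show. The part of these markers in the results was not tested.

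The promoters of HES1 and HES4 are shown because both genes are classical targets. They were also the members, among the 8 with a promoter window, whose window held the core of the RBPJ motif. The windows come from RefSeq (GRCh38.p14), which held 8 of the 10 members. DLL1 and HEY1 had no window and were not searched. The windows run from 250 bases before to 50 bases after the annotated start of the gene, on the strand of the gene. Capitals mark matches to the letters TGGGAA, the RBPJ core, extended to GTGGGAA where the base before it fits.
HES1, chr3:194135898-194136197, plus strand: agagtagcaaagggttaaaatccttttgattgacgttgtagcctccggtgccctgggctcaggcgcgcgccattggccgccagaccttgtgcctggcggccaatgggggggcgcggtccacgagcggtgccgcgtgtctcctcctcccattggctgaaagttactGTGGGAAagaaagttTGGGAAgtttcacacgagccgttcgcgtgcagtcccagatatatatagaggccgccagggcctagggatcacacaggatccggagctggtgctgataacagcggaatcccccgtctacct
HES4, chr1:1000048-1000347, minus strand: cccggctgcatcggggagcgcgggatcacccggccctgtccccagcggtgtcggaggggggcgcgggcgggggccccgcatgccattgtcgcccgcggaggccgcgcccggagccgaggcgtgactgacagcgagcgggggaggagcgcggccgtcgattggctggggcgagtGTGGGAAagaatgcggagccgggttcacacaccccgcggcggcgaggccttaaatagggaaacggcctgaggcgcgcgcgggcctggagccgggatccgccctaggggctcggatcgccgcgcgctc
The HES1 window held the core at -84 to -79 and again at -70 to -65 from the start site, both on the gene's own strand, and the HES4 window held it once, at -76 to -71. In both genes a match extended to GTGGGAA (-85 to -79 in HES1, -77 to -71 in HES4). Around that match the promoters share an unbroken run of 12 bases, tgtgggaaagaa, and 24 of the 47 bases from 20 before it to 20 after it are the same. Searched on both strands, the core occurred in 24.0% of all 35116 promoter windows, a pair or more of cores in 3.80%, and the extended form, which contains the core, in 6.25%. Neither form occurred in the windows of NOTCH1, NOTCH2, NOTCH3, NOTCH4, JAG1 or JAG2. The N box CACNAG, which HES proteins bind, was found in 5 of the 8 windows (38.0% of all windows). HES1, which is known to repress its own promoter, had 4 of these. The E box CACGTG was found in none of the 8 and in 7.26% of all windows. These matches describe letters in a reference sequence, and no binding was measured. The RefSeq start site of HES1 lies 3 bases and that of HES4 75 bases from the gene start used for counting.

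**Figure D1:**
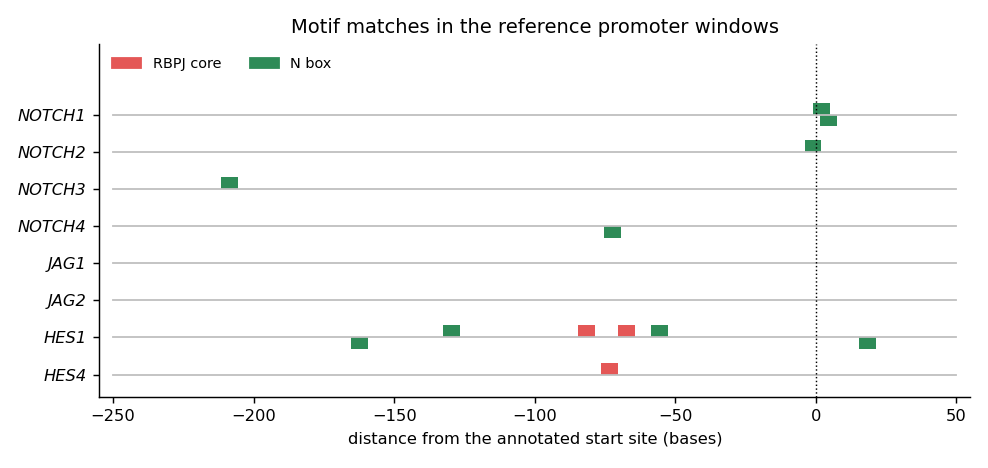
Matches to the RBPJ core and the N box in the 300-base promoter windows of 8 members, by distance in bases from the annotated start site (dotted line); blocks above a line are on the gene's strand and blocks below on the other. The RBPJ core appears in HES1 and HES4, in both between 65 and 85 bases before the start.

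Receptors and ligands of the Notch pathway moved in both directions between parent and ADRr cells. NOTCH1 rose 3.22-fold and JAG1 2.70-fold, while the more abundant relatives of each in parent cells, NOTCH2 and JAG2, fell 1.32-fold and 1.36-fold. The target HES4 rose 1.44-fold, and HEY1 had 8 counts summed over the parent libraries and 46 over the ADRr libraries. HES1 lay just past the thresholds in the same direction, and NOTCH3, NOTCH4 and DLL1 were low in both groups and were not called. To be called, a gene needed an adjusted p no higher than 0.05 (edgeR's quasi-likelihood test, Benjamini-Hochberg over all 15242 tested genes) together with a 1.2-fold difference up or down, which is 0.263 on the log2 scale. SE is the standard error of a log2 fold change. By this rule 5 members were higher and 2 lower, where 29.2% of all tested genes were called higher and 29.6% lower. HEY1 is among the 5, but since it was tested only through the group where it is high, its call is no evidence, and 4 members were called higher where at least 10 counts were required of every library, which leaves HEY1 untested. Together 7 of the 10 members were called, against 58.8% of all tested genes, which is near that background. The libraries of the groups did not overlap for 7 members, against 69.2% of all tested genes. In 4 of them every ADRr library lay above every parent library (34.5% of all tested genes), and in 3 every ADRr library lay below (34.7%). Their median absolute log2 fold change, 0.42, was close to the 0.46 of all tested genes. Called members whose log2 fold change reached 1 in either direction were 3, NOTCH1, JAG1 and HEY1, and genes of this kind made up 18.8% of all tested genes. The same 3 members passed an absolute log2 cutoff of 1.2, against 7.31% of all tested genes higher, and no member was lower by that much, against 6.38%. HEY1 is counted among these 3 and among the 4 members that lay above, and is no evidence there either. In bulk RNA, fewer cells that express a gene and less RNA of it per cell cannot be told apart.

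NOTCH1 (ENSG00000148400, chromosome 9, 136494433 to 136545786 on GRCh38, minus strand) encodes the receptor best known from T-cell leukaemia, where it carries activating mutations. Its normalized counts were 1234, 1178 and 1267 in parent replicates 1 to 3 and 3891, 3989 and 3977 in ADRr replicates 1 to 3. Every ADRr library lay above every parent library, and the spread within each group was small beside the gap. The log2 fold change was 1.69 (SE 0.055, edgeR adjusted p = 2.4e-17). NOTCH2 (ENSG00000134250, chromosome 1, 119911553 to 120069626, minus strand), a receptor with a closely related extracellular part, moved the other way. Its libraries held 9759, 9615 and 8859 normalized counts in parent cells and 7036, 7228 and 7157 in ADRr cells. Here too the groups did not overlap, and the log2 fold change was -0.40 (SE 0.049, edgeR adjusted p = 2.0e-07). A partial copy of NOTCH2 elsewhere on chromosome 1, NOTCH2NLA, had 7 to 26 counts per library, against 6907 to 9483 for NOTCH2, and how reads shared by the copies were counted is not given in the sources used here.

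NOTCH3 (ENSG00000074181, chromosome 19, 15159038 to 15200981), a receptor best known from vascular smooth muscle, was low. It had 43.2, 48.7 and 44.8 normalized counts in parent cells and 33.3, 39.8 and 41.1 in ADRr cells. The ADRr libraries all lay below the parent libraries, but the log2 fold change of -0.26 had a 95% interval of -0.77 to 0.25 (adjusted p = 0.36 from edgeR), and NOTCH3 was not called. NOTCH4 (ENSG00000204301, chromosome 6, 32194843 to 32224067), mainly an endothelial receptor, had 14.4, 14.1 and 11.7 normalized counts in parent cells and 9.52, 13.6 and 14.9 in ADRr cells. The groups overlapped, and the log2 fold change was -0.07 (95% interval -0.92 to 0.77, adjusted p = 0.88 from edgeR). NOTCH4 overlaps GPSM3 on the same strand, and how reads of both were assigned is not given in the sources used here.

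Levels of different genes were compared per length, as RPKM scaled with edgeR's TMM factors. Shares and ratios between genes therefore depend on the deposited gene lengths, 10377 bases for NOTCH1, 16807 for NOTCH2, 9298 for JAG1 and 6397 for JAG2. Before division by length, the mean normalized counts in ADRr cells were 3953 for NOTCH1 and 7140 for NOTCH2. The receptors summed to 41.1, 40.4 and 38.2 RPKM in parent libraries and to 46.5, 47.8 and 47.5 RPKM in ADRr libraries, 1.19-fold higher. All ADRr libraries lay above all parent libraries, with p = 0.1 by an exact permutation test (two-sided), the smallest value that 3 libraries against 3 allow. NOTCH2 held 82.3, 82.6 and 80.5% of this sum in parent cells and 52.5, 52.4 and 52.2% in ADRr cells, and NOTCH1 16.9, 16.4 and 18.6% and 47.0, 46.9 and 47.0%. The share of NOTCH2 differed by -29.4 percentage points (exact permutation p = 0.1, two-sided, again the smallest possible). The RPKM ratio of NOTCH1 to NOTCH2 was 0.212 ± 0.018 in parent cells and 0.897 ± 0.0032 in ADRr cells (SD, n = 3). NOTCH2 thus stayed the receptor with the highest level in both groups, and in ADRr cells its lowest library (24.4 RPKM) was still above the highest of NOTCH1 (22.4 RPKM). NOTCH3 and NOTCH4 together held under 1% of the sum in every library.

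JAG1 (ENSG00000101384, chromosome 20, 10637684 to 10673999, minus strand), the Jagged ligand whose loss causes Alagille syndrome, had 484, 475 and 449 normalized counts in parent cells and 1310, 1256 and 1230 in ADRr cells. The groups were far apart, and the log2 fold change was 1.43 (SE 0.071, edgeR adjusted p = 4.2e-14). JAG2 (ENSG00000184916, chromosome 14, 105140981 to 105168824, minus strand), the other Jagged ligand, had 600, 563 and 632 normalized counts in parent cells and 444, 447 and 430.5 in ADRr cells. All ADRr libraries lay lower, by a log2 fold change of -0.44 (SE 0.082, edgeR adjusted p = 5.6e-05). DLL1 (ENSG00000198719, chromosome 6, 170282206 to 170306565, minus strand), a Delta ligand, had 12.3, 11.9 and 5.84 normalized counts in parent cells and 8.56, 13.6 and 16.8 in ADRr cells. These overlap, and its log2 fold change of 0.38 had a 95% interval of -0.56 to 1.33 (adjusted p = 0.48 from edgeR). DLL1 overlaps FAM120B on the opposite strand, which had 3291 counts in all parent and 2357 in all ADRr libraries, and without strand information reads of these genes cannot be told apart.

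The ligands summed to 8.72, 8.32 and 8.68 RPKM in parent libraries and 12.4, 12.2 and 11.9 RPKM in ADRr libraries, 1.42-fold higher (exact permutation p = 0.1, two-sided). JAG2 was the leading ligand of parent cells with 62.7, 61.6 and 66.4% of the sum, and JAG1 that of ADRr cells with 66.1, 64.6 and 64.6%. The RPKM ratio of JAG1 to JAG2 was 0.541 ± 0.047 in parent and 1.98 ± 0.048 in ADRr cells (SD, n = 3). So the order of the Jagged ligands turned over, while that of the leading receptors did not. DLL1 held 1.22 to 2.58% of the ligand sum over all libraries. The receptor sum was 4.66 ± 0.23 times the ligand sum in parent cells and 3.88 ± 0.12 times in ADRr cells, with no overlap between groups (exact permutation p = 0.1, two-sided). Of the 4 other ligands DLK2, an atypical ligand-like protein, was the 1 tested, and it was called lower with a log2 fold change of -0.59 (SE 0.13, edgeR adjusted p = 3.7e-04). DLL4, which is mainly endothelial, had 1, 1 and 4 counts in parent and 1, 9 and 8 in ADRr libraries and was not tested, and neither were DLL3 and DLK1, with at most 3 counts per library.

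**Figure D2:**
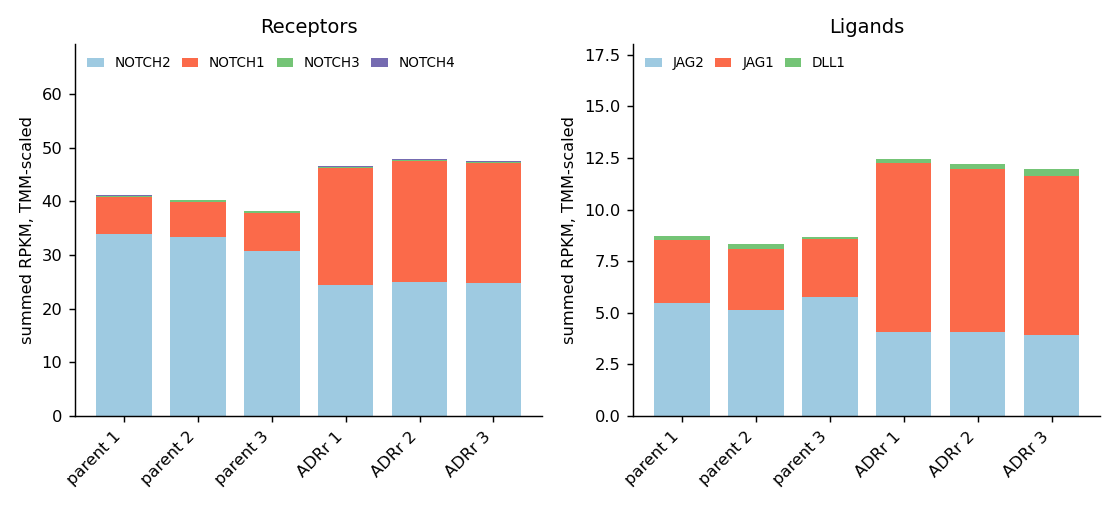
Summed level of the receptors (left) and ligands (right) in each library, in RPKM, with the part of each gene stacked. NOTCH1 grows from 16.4 to 18.6% of the receptor sum in parent libraries to 46.9 to 47.0% in ADRr libraries, and JAG1 replaces JAG2 as the larger part of the ligand sum.

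HES1 (ENSG00000114315, chromosome 3, 194136145 to 194138732, plus strand), the bHLH repressor most often used as a readout of Notch, had 219, 207 and 244 normalized counts in parent cells and 237, 275 and 300 in ADRr cells. The groups overlapped, since ADRr replicate 1 lay below parent replicate 3. Its log2 fold change was 0.28 (SE 0.11, edgeR adjusted p = 0.039), called higher by a narrow margin. The call did not hold in 7 of 14 alternatives: with DESeq2 the log2 fold change was 0.28 (adjusted p = 0.12). It was also lost without parent replicate 1 (0.26, adjusted p = 0.11), parent replicate 2 (0.22, adjusted p = 0.11), ADRr replicate 2 (0.27, adjusted p = 0.087) or ADRr replicate 3 (0.19, adjusted p = 0.20). Over all alternatives the adjusted p of HES1 lay between 0.012 and 0.20.

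HES4 (ENSG00000188290, chromosome 1, 998962 to 1000172, minus strand), a close relative of HES1, had 170, 189 and 208 normalized counts in parent cells and 273, 307 and 238 in ADRr cells. All ADRr libraries lay above all parent libraries, with a log2 fold change of 0.52 (SE 0.12, edgeR adjusted p = 6.1e-04). The interferon-induced gene ISG15 starts 966 bases from the start of HES4 and is read in the opposite direction, so the genes share one upstream stretch. ISG15 rose by 2.13 on the log2 scale (SE 0.071, edgeR adjusted p = 3.7e-17), and its part in the change of HES4 was not tested. HEY1 (ENSG00000164683, chromosome 8, 79764010 to 79767863, minus strand), a repressor of the related HEY family, had 3, 1 and 4 counts in parent libraries and 16, 15 and 15 in ADRr libraries. It was close to the limit of detection in parent cells and low but steady in ADRr cells. The ratio of the summed counts, scaled for library size, was 5.56. The fitted log2 fold change was 2.40. No p or interval is given here because HEY1 passed the filter through its ADRr libraries alone, so these values are a description only.

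In RPKM, the members of parent cells ranked NOTCH2 (32.6), HES4 (9.87), NOTCH1 (6.89), HES1 (6.31), JAG2 (5.45), JAG1 (2.94), NOTCH3 (0.283), DLL1 (0.181), NOTCH4 (0.0801) and HEY1 (0.0485). The libraries overlapped for the neighbours NOTCH1 and HES1 and for NOTCH4 and HEY1, and for no other neighbours in this order. ADRr cells ranked NOTCH2 (24.8), NOTCH1 (22.2), HES4 (14.2), JAG1 (7.93), HES1 (7.65), JAG2 (4.02), HEY1 (0.270), NOTCH3 (0.236), DLL1 (0.235) and NOTCH4 (0.0759). There the libraries of JAG1 and HES1, of HEY1 and NOTCH3, and of NOTCH3 and DLL1 overlapped.

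To see whether the surrounding chromosome moved too, the nearest 20 tested genes, 10 on each side where the chromosome held them, were taken for each member. The median log2 fold change of these neighbours was 0.25 around NOTCH1 and 0.14 around JAG1, far below the changes of both genes. Around NOTCH2 it was 0.23 and around JAG2 0.19, opposite in sign to the members. Around HES1 it was 0.53, above the change of HES1 itself. Of the 20 neighbours of HES1 10 were called higher and 5 lower, against 29.2% and 29.6% of all tested genes. The median was 0.16 around HES4 and -0.04 around HEY1. NOTCH3 (-0.09), NOTCH4 (-0.29) and DLL1 (-0.30, 14 neighbours) had neighbours that were lower in the median. With up to 50 nearest genes in place of 20, the median around HES1 was 0.13 and those around JAG2 and HES4 turned to -0.11 and -0.08.

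**Figure D3:**
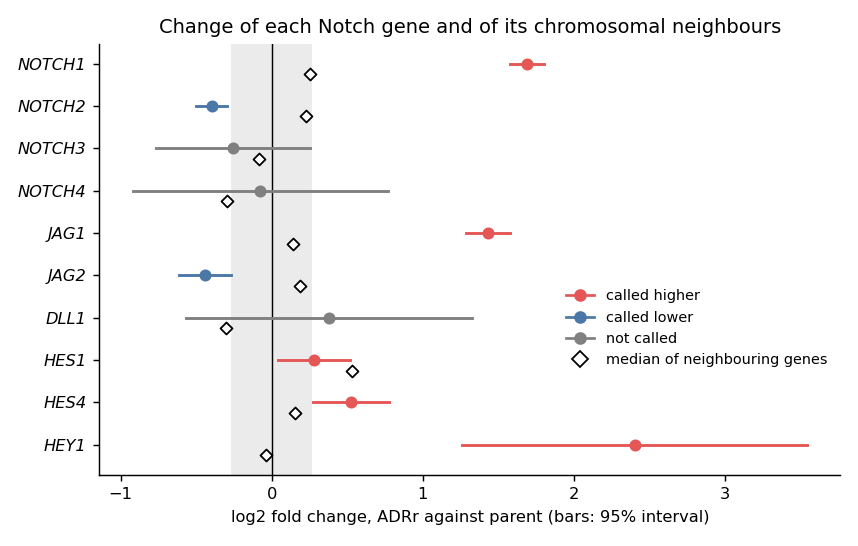
Log2 fold change of each member between ADRr and parent cells with its 95% interval (edgeR, n = 3 libraries each), and the median of its neighbouring tested genes (diamonds). The grey band is a fold change under 1.2. NOTCH1 and JAG1 lie far to the right of their neighbours and NOTCH2 and JAG2 to the left. HEY1 passed the filter on low counts through its ADRr libraries alone, so its interval and its call are no evidence.

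The machinery around the members was read from a list of 63 other pathway genes, of which 55 were tested. Of these 17 were called higher and 18 lower, 30.9 and 32.7%, near the shares of all tested genes given above, and their median log2 fold change was -0.07 (all tested genes -0.01). The list as a whole did not move one way.

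Among the 4 genes of ligand endocytosis, E3 ligases that make the ligand cell pull on the receptor, 2 were called higher and 1 lower. NEURL1, a Neuralized ligase, had 32.9, 22.7 and 18.5 normalized counts in parent cells and 383, 331 and 359 in ADRr cells. It was 14.4-fold higher in ADRr cells, a log2 fold change of 3.85 (SE 0.17, edgeR adjusted p = 4.7e-15). Its relative NEURL1B had 314, 279 and 305 normalized counts in parent cells and 27.6, 30.3 and 29.0 in ADRr cells, a log2 fold change of -3.37 (SE 0.15, edgeR adjusted p = 9.9e-15). The levels of the pair were thus exchanged, and neither gene's groups overlapped. The medians of their 20 chromosomal neighbours were 0.17 and 0.29. MIB1, the ligase best known for Jagged and Delta uptake, rose by 0.79, beside neighbours with a median of 0.46.

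Of the 9 genes of receptor cleavage 2 were called higher and 3 lower. ADAM10, the protease that makes the ligand-dependent cut, had 9700, 10147 and 9020 normalized counts in parent cells and 2872, 2923 and 3067 in ADRr cells, 3.26-fold lower (log2 fold change -1.70, SE 0.053, edgeR adjusted p = 1.4e-17). ADAM17, which can cut Notch without ligand, had 852, 912 and 800 normalized counts in parent cells and 1839, 1742 and 1686 in ADRr cells, a log2 fold change of 1.04 (SE 0.066, edgeR adjusted p = 3.4e-12). The RPKM ratio of ADAM17 to ADAM10 went from 0.134 ± 0.0015 to 0.896 ± 0.068 (SD, n = 3). The medians of their 20 nearest tested genes had the same sign as each gene, -0.45 around ADAM10 and 0.71 around ADAM17. The change of ADAM10 was well beyond that of its neighbours. Wider sets of neighbours were not read for these genes. FURIN, which cleaves the receptor on its way to the surface, changed by -0.93. In γ-secretase, PSEN2, a catalytic subunit, rose by 0.46 and APH1B changed by -0.39.

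Of the 6 glycosylation genes 2 were called higher and 3 lower. LFNG, the Fringe enzyme that favours Delta over Jagged binding to NOTCH1, had 502, 517 and 482 normalized counts in parent cells and 161, 187 and 120 in ADRr cells. This was 3.21-fold lower (log2 fold change -1.68, SE 0.12, edgeR adjusted p = 2.9e-11), with neighbours at a median of -0.30. EOGT and POFUT1, which add the first sugars, changed by -1.29 and -0.74. RFNG, another Fringe, rose by 0.52 and POGLUT1 by 0.42. The remaining Fringe, MFNG, had a log2 fold change of 0.08 (edgeR adjusted p = 0.85) and was not called.

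In the nucleus, RBPJ rose by 0.30 (SE 0.057, edgeR adjusted p = 7.1e-05), from 3468 ± 297 to 4277 ± 83.3 normalized counts. Without parent replicate 3 its change was 0.26, under the fold change threshold. Of the 9 genes of this group 3 were called higher and 3 lower. The histone acetyltransferases EP300 and CREBBP rose by 0.51 and 0.30, and the acetyltransferases KAT2B and KAT2A changed by -1.16 and -0.76. The Mastermind coactivator MAML2 changed by -0.29. Of 11 tested corepressor genes 1 was called higher and 4 lower. CTBP2 rose by 1.18 and its paralogue CTBP1 changed by -0.88. HDAC1, part of the repressor complex that RBPJ holds without Notch, changed by -0.82. Of 10 tested inhibitors and turnover genes 5 were called higher and 2 lower, led by DTX4 (1.46), a Deltex ligase, ITCH (0.58), a ligase that sends Notch to breakdown, and CDK8 (0.47), a kinase that marks the intracellular domain. FBXW7, the ligase that removes this domain, changed by -0.35 and DTX2 by -0.38.

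Of 8 other HES, HEY and target genes 5 were tested, 2 called higher and 1 lower. HES7, which is known from the segmentation clock, had 12.3, 11.9 and 12.7 normalized counts in parent and 77.1, 50.2 and 35.5 in ADRr cells. These did not overlap, though the ADRr libraries differed widely, and the log2 fold change was 2.13 (SE 0.34, edgeR adjusted p = 9.4e-06). HES2 rose by 0.99. HES6, which opposes HES1, changed by -0.43 (adjusted p = 0.016 from edgeR), a call lost with DESeq2 (-0.43, adjusted p = 0.071) and without ADRr replicate 1 (-0.37, adjusted p = 0.068) or 3 (-0.35, adjusted p = 0.078). Over all alternatives the adjusted p of HES6 lay between 0.0068 and 0.078. HEYL and NRARP, both known Notch targets, had log2 fold changes of -0.07 and -0.35 (edgeR adjusted p = 0.88 and 0.27) and were not called. HES3, HES5 and HEY2 had at most 3 counts in any library.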

How the data were processed

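RNA of 3 parent and 3 ADRr libraries was measured. The authors selected polyadenylated RNA, mapped the reads with HISAT2 2.0.5 and counted them per gene with featureCounts 1.5.0-p3 (versions and GRCh38 from the submitters' processing notes). The authors deposited whole-number counts without normalization and FPKM values. Whether strand was used is not given in the sources used here. The test on these counts was run in edgeR 4.0.16 under R 4.3.3 (filterByExpr, TMM factors of 0.987 to 1.01, quasi-likelihood test). Normalized counts were scaled to the mean library size, and RPKM used the deposited gene lengths. Standard errors were taken as the log2 fold change over the root of F. The other 43493 genes were not tested. The smallest p of an exact permutation test was 0.1. Columns of the authors' comparisons were not used.

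Alternatives were DESeq2 1.42.0 or its size factors, library size alone, leaving low counts unfiltered, requiring 10 counts in each library, limma 3.58.1 on log2(FPKM + 1) or log2(FPKM + 0.1) with a mean FPKM of at least 0.5, a replicate block, each library left out, an absolute log2 fold change of 1.2 and the adjusted p alone. The fits were tested on simulated data, with few genes changed and the same spread beyond counting error for every gene. The real data differ in both, so this test does not cover the calls made here. Named genes were all members and, in each pathway list, the 3 largest called increases and decreases, with RBPJ, ADAM10, ADAM17 and DLL4; some genes that this rule names are not reported here. The members and lists were chosen with earlier results of these data known. ISG15, GPSM3, FAM120B, NOTCH2NLA MFNG, HEYL, NRARP and the low-count genes were named after their values were seen.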

Additional observations from a re-analysis of the deposited data

How the results depend on the processing

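Of 130 refitted log2 fold changes of members, 122 kept their sign and their side of the thresholds. The exceptions were HES1 (above), whose call was also lost with no filter (0.28, adjusted p = 0.054) and on log2(FPKM + 1) (0.24), and NOTCH4, which ran from -0.21 to 0.11 with 1 library left out, the last without ADRr replicate 1 (adjusted p = 0.86, range over alternatives 0.73 to 0.97). Of 430 refitted values of 31 named pathway genes 424 did so. RBPJ, MAML2, FBXW7 and HES6 lost their call in at least 1 alternative. On log2(FPKM + 1) 3 members were called higher, with 6 members tested. At an absolute log2 fold change of 1.2, 3 members were called higher and 0 lower (0 with DESeq2 too, and 0 by edgeR at an unadjusted p under 0.05), and 3 pathway genes higher and 4 lower, where 7.31% of all tested genes were higher and 6.38% lower. With 1 library left out, 4 to 5 members were called higher and 2 lower. The members called higher at the cutoff of 1.2 and with 1 library left out include HEY1. It passed the filter through its ADRr libraries alone, so its calls are no evidence.

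The replicate block changed no call of a member: 5 were higher and 2 lower. The labels tie same-numbered libraries by number only. Correlations of their deviations were -0.046 to 0.0074, against -0.034 to 0.055 for differently numbered libraries. These values cannot show whether libraries shared a culture or a batch. With up to 50 nearest genes the neighbour medians moved to 0.037 (NOTCH1), 0.15 (NOTCH2), -0.31 (NOTCH3), -0.39 (NOTCH4), 0.031 (JAG1), -0.11 (JAG2), 0.13 (HES1) and -0.077 (HES4). The cause was not tested. Depth limits NOTCH3, NOTCH4, DLL1 and HEY1 most.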
